A study of Mus musculus with 12 samples.

Results

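The RNA exosome core is described here in 4 lines of mouse embryonic fibroblasts (MEFs) through the genes of its 10 subunits, *Exosc1* to *Exosc10*, which were taken by name from the 24453 genes of the count table. The exosome degrades and trims RNA from the 3′ end in the nucleus and the cytoplasm, and it shares an evolutionary origin with PNPase, the mitochondrial exoribonuclease removed in this study. *Exosc4* to *Exosc9* encode the 6 proteins of a ring built from the same RNase PH fold as PNPase, and *Exosc1*, *Exosc2* and *Exosc3* encode the 3 proteins of a cap that binds RNA at the entry of the ring. The mammalian ring has lost catalytic activity, so degradation rests on *Exosc10*, a nuclear exonuclease, and on Dis3 or Dis3l, which bind the other end. Each ring and cap protein occupies its own place in the complex. RNA levels do not measure the amount of assembled complex.

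All lines carry *Pnpt1* neo-flox/neo-flox alleles (strain C57BL6/J) and descend from TM6 MEFs, which were immortalized with SV40 large T-antigen and served untreated as the reference. The rho0 MEFs, which lack mtDNA, were TM6 MEFs kept with ditercalinium at 750 ng/mL for 3 weeks and expanded from 1 colony of a single cell. The PNPase knockout lines, named PKO-1 and PKO-6, are TM6 clones obtained from single cells after adenoviral Cre, which removes a floxed portion of *Pnpt1*. The paper reports that these clones had lost their mtDNA as well, so against TM6 they differ in PNPase and in mtDNA together. All 4 lines were grown with uridine at 50 µg/mL. Each line has 3 biological replicates and each derived line is 1 clone, so tests measure the spread between cultures of a clone and cannot separate a treatment from clonal differences. Ages are not given in the sources used here.

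The 12 libraries held 47164860 to 67991378 counts, of which *Rn45s*, the ribosomal RNA precursor, took 12.2% to 19.6%. Normalized counts of *Pnpt1* were 2832 to 3320 in TM6, 5051 to 5510 in rho0, 1191 to 1276 in PKO-1 and 1720 to 2214 in PKO-6, so both knockout clones lay below every TM6 library although exons outside the deleted portion were still counted. Of 10 fibroblast markers, 7 to 9 reached 1 TPM (a level scaled for length and for the library's total) in each line, but single markers moved differently. *Fn1* averaged 429, 898, 954 and 778 TPM in TM6, rho0, PKO-1 and PKO-6, whereas *Col1a1* averaged 960, 318, 493 and 193 TPM. In the same order *Vim* averaged 2300, 1520, 2090 and 1233 TPM, *Col3a1* 26.8, 2.63, 37.8 and 1.77 TPM, and *Pdgfra* 1.62, 0.383, 14.6 and 1.90 TPM. *Thy1* averaged at most 0.0567 TPM in every line and *Lum* reached 1 TPM in PKO-1 alone. The summed fibroblast markers were 6624 to 6823 TPM in TM6, 3764 to 3866 in rho0, 6793 to 6958 in PKO-1 and 3024 to 3344 in PKO-6. Their part in the differences below was not tested. The epithelial markers summed to at most 1.68 TPM and the endothelial markers to at most 1.00 TPM in any library. The haematopoietic markers summed to at most 6.05 TPM, with *Ptprc*, *Adgre1*, *Itgam* and *Cd3e* under 0.1 TPM in all libraries. The neural list summed to 13.4 to 34.1 TPM, from *Map2* and *Tubb3*, with *Gfap* and *Olig2* under 0.1 TPM.

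The promoters of *Exosc5*, *Exosc1* and *Exosc8* are shown because these were the 3 subunits past adjusted p alone in the same direction in rho0 and both PKO clones relative to TM6, although *Exosc1* in rho0 exceeded 0.01 in 13 of 21 alternatives. Each sequence runs 5′ to 3′ on the strand of the gene, from 250 bases before to 50 bases after its RefSeq start in GRCm38.p6. They lie at chr7:25658903-25659202 (plus strand), chr19:41933265-41933564 (minus strand) and chr3:54735315-54735614 (minus strand). Capitals mark matches on either strand to CCAAT, bound by the factor NF-Y, and to GCATGCGC, bound by NRF1.
Exosc5: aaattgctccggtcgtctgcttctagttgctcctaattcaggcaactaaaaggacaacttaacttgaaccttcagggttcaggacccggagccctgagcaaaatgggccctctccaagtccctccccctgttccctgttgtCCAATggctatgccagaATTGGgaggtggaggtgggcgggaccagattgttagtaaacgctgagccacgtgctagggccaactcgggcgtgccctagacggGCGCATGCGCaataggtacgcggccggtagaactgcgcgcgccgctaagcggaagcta
Exosc1: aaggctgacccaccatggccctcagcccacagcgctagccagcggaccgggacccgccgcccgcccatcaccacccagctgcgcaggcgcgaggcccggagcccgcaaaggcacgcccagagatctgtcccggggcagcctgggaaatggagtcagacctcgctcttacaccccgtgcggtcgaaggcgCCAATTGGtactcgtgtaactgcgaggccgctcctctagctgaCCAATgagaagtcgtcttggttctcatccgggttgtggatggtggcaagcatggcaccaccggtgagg
Exosc8: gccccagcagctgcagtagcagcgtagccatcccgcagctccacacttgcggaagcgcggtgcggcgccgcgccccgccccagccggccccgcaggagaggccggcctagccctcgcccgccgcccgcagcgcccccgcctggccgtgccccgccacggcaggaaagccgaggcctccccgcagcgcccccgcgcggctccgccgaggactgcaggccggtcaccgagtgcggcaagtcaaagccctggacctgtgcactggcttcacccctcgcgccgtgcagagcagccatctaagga
The *Exosc5* window held 2 matches to CCAAT and 2 overlapping matches to GCATGCGC, 1 on each strand. The *Exosc1* window held 3 matches to CCAAT, of which 2 overlap on opposite strands, and the *Exosc8* window held no match to any of the 5 motifs searched, the others being CCGGAAG (ETS factors), AAGATGG (YY1) and TATAAA (the TATA box). Of 32851 promoters of the same length, 37.4% hold CCAAT, 2.71% GCATGCGC, 8.86% CCGGAAG, 6.34% AAGATGG and 13.6% TATAAA. Of the other subunits in the promoter table, *Exosc2* had 4 matches to CCAAT and 1 to AAGATGG, *Exosc3* had 1 to CCGGAAG and *Exosc10* had 1 to GCATGCGC. *Exosc6* and *Exosc7* had none, and none of the 8 windows held TATAAA. *Exosc10* has 2 promoter windows, of which only 1 is described. CpG pairs numbered 19 in *Exosc5*, 24 in *Exosc1* and 36 in *Exosc8*, against a median of 7 over all promoters. A match is a run of letters, not a measured binding site.

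The subunit genes lie on 8 chromosomes, and 4 of the 10 (40.0%) start within 1000 bases of a gene that is transcribed away from them, compared with 1975 of 14009 tested genes that have a single position (14.1%). The partners are *Zdhhc16* for *Exosc1*, 157 bases away, *Bckdha* for *Exosc5* at 391 bases, *Zdhhc3* for *Exosc7* at 25 bases and *Alg5* for *Exosc8* at 174 bases. *Exosc6*, on chromosome 8 from 111056339 to 111057664 of GRCm38, has 1 exon and the highest GC content of the 10 at 64.9%, above 99.5% of tested genes. *Exosc9*, on chromosome 3 from 36552606 to 36565727, shares 378 exon bases with *Ccna2* on the opposite strand. Whether counting used the strand is not stated, so reads of *Exosc9* and *Ccna2* may not be fully separated.

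Core subunit RNA made up a similar part of every library. The 10 genes together held 377 to 405 CPM (counts scaled to the library's total) in the 12 libraries, with means of 394 ± 5.17 in TM6, 388 ± 1.93 in rho0, 392 ± 13.8 in PKO-1 and 388 ± 12.6 in PKO-6 (mean ± SD of 3 libraries). The difference between TM6 and rho0 was larger than the SD of either line and smaller than the SD of the PKO clones. These totals include *Rn45s*, which took 13.6% to 17.1% of the TM6 libraries and 15.8% to 19.6% of the rho0 libraries. It took 13.2% to 15.7% in PKO-1 and 12.2% to 19.2% in PKO-6. Its part in the CPM differences and their SD was not tested. Per length, the summed level was 478 ± 5.74 TPM in TM6, 454 ± 5.33 in rho0, 449 ± 8.67 in PKO-1 and 433 ± 16.8 in PKO-6 (mean ± SD of 3 libraries). The TM6 libraries, at 472 to 483 TPM, lay above all libraries of the other lines, at 419.9 to 458 TPM. The ring was also highest in TM6, with 43.2 ± 0.458 TPM per subunit in TM6 against 37.9 ± 0.226 in rho0, 38.7 ± 0.263 in PKO-1 and 37.8 ± 1.03 in PKO-6 (mean ± SD of 3 libraries). The cap had 45.9 ± 1.92, 47.7 ± 0.698, 48.0 ± 1.85 and 45.4 ± 2.14 TPM per subunit in the same order of lines, with overlapping libraries. TPM values depend on all other RNA in a library, and fewer transcripts per cell cannot be told apart from more RNA of other genes.

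The subunits were not equally abundant. Averaged over 12 libraries, *Exosc10* (76.7 TPM) and *Exosc8* (69.5 TPM) were highest, followed by *Exosc2* (54.2 TPM), *Exosc9* (52.8 TPM), *Exosc1* (43.7 TPM), *Exosc3* (42.4 TPM), *Exosc6* (36.2 TPM), *Exosc7* (33.5 TPM), *Exosc5* (23.8 TPM) and *Exosc4* (20.6 TPM). The order was not the same in every line. In TM6, *Exosc5* was lowest at 17.2 ± 1.89 TPM and *Exosc4* followed at 24.5 ± 1.05 TPM, whereas in rho0 *Exosc4* was lowest at 15.0 ± 0.322 TPM and *Exosc5* had 28.7 ± 2.13 TPM (mean ± SD of 3 libraries). In PKO-6 these 2 subunits, at 23.8 ± 2.73 and 23.2 ± 2.37 TPM, did not differ beyond their spread (mean ± SD of 3 libraries). *Exosc8* and *Exosc10* were also within their spread in TM6, at 84.3 ± 3.51 and 81.1 ± 2.16 TPM, while in rho0 *Exosc10* stood above *Exosc8*, at 82.9 ± 2.70 against 66.6 ± 2.73 TPM (mean ± SD of 3 libraries). Levels of the 9 ring and cap subunits were least even in TM6, where the highest was 4.97 ± 0.708 times the lowest, compared with 4.43 ± 0.274 in rho0, 3.42 ± 0.197 in PKO-1 and 2.73 ± 0.480 in PKO-6 (mean ± SD of 3 libraries). The TM6 and rho0 libraries overlapped in this ratio, and those of PKO-1 and PKO-6 lay below both.

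**Figure D1:**
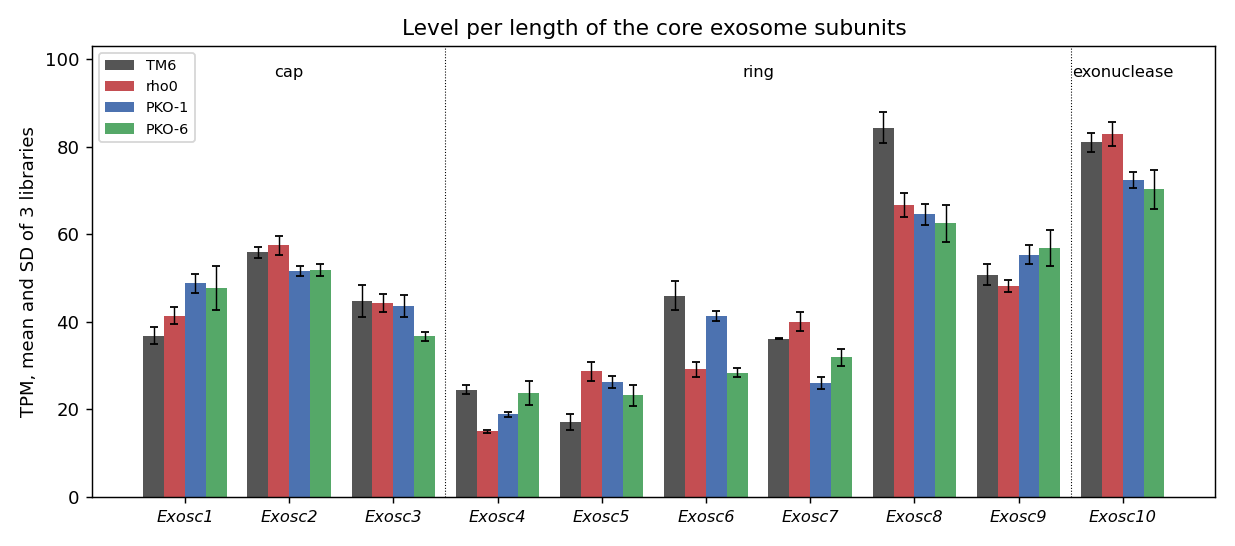
TPM of each core subunit (y axis) by line, with bars for the mean and error bars for the SD of 3 libraries. Cap, ring and exonuclease are set apart by dotted lines. *Exosc8* was highest in TM6 at 84.3 TPM, *Exosc5* was lowest in TM6 at 17.2 TPM, and *Exosc4* was lowest in rho0 at 15.0 TPM.

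Which subunits differed between lines was tested with edgeR's quasi-likelihood test across 14026 genes, with Benjamini-Hochberg adjustment. A subunit is called where the adjusted p is below 0.01 and the log2 fold change exceeds 0.5 in size, and the count by adjusted p alone is given beside it. In rho0 against TM6, 3 of 10 subunits were called (*Exosc5* higher, *Exosc4* and *Exosc6* lower) against 42.1% of all tested genes, and 5 passed adjusted p alone against 62.1%. In PKO-1 against TM6, 1 was called (*Exosc5* higher) against 34.3%, and 5 passed adjusted p alone against 54.3%. In PKO-6 against TM6, 2 were called (*Exosc5* higher, *Exosc6* lower) against 41.3%, and 5 passed adjusted p alone against 61.0%. Subunits were thus called no more often than other genes, and their median absolute log2 fold changes of 0.18, 0.25 and 0.22 in these comparisons lay below the medians of all tested genes, 0.48, 0.39 and 0.46. The 3 comparisons share the TM6 libraries.

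**Figure D2:**
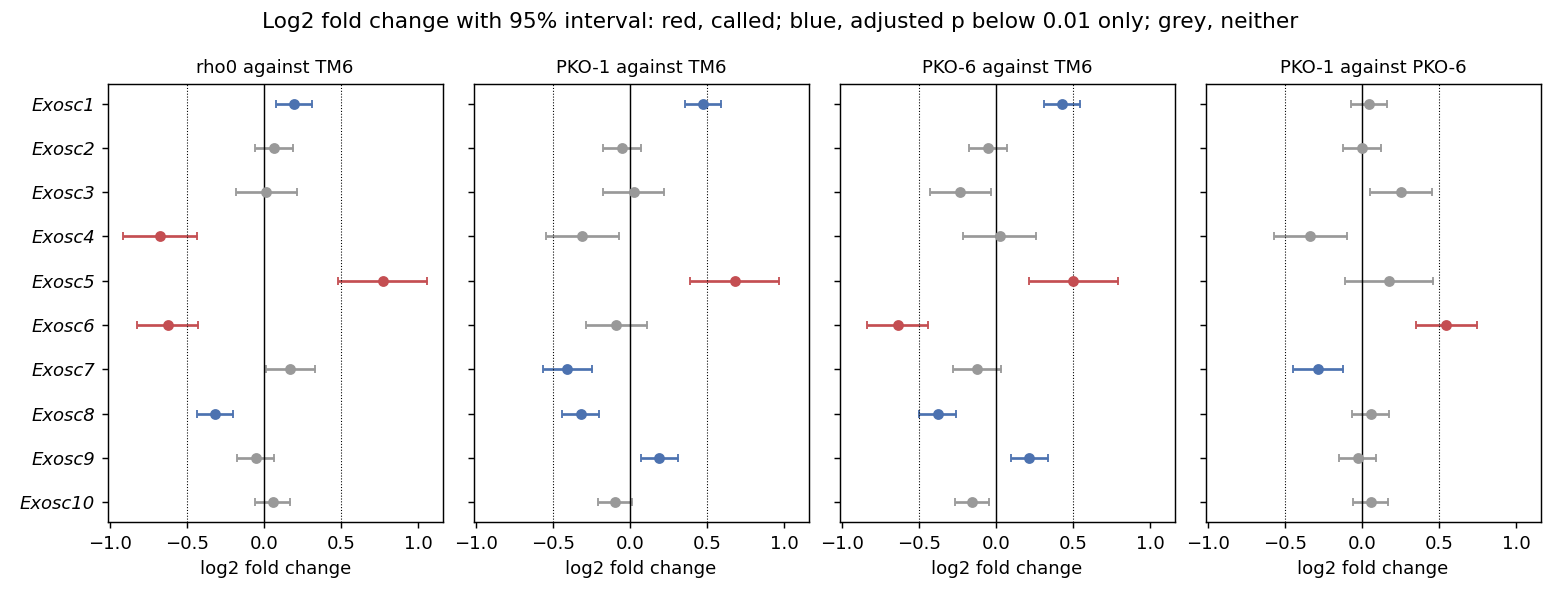
Log2 fold change (x axis) of each subunit (y axis) in 4 comparisons, with 95% intervals (red marks called subunits, blue those past adjusted p alone and grey the rest). *Exosc5* is red in all 3 comparisons with TM6, at 0.77, 0.68 and 0.50, and dotted lines mark the threshold of 0.5.

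*Exosc5*, a ring subunit on chromosome 7 from 25659153 to 25668032, was higher than in TM6 in all 3 derived lines, 1.71-fold in rho0, 1.60-fold in PKO-1 and 1.42-fold in PKO-6. Its normalized counts were 544, 468 and 438 in TM6, 965, 722 and 787 in rho0, 729, 810 and 783 in PKO-1, and 715, 785 and 557 in PKO-6. All 9 derived libraries lay above the highest TM6 library, the nearest being PKO-6 replicate 3 at 557. The log2 fold change against TM6 was 0.77 (SE 0.13, edgeR adjusted p = 0.000155) in rho0, 0.68 (SE 0.13, edgeR adjusted p = 0.000541) in PKO-1 and 0.50 (SE 0.13, edgeR adjusted p = 0.00419) in PKO-6. The call in PKO-6 sat at the threshold: it was lost without TM6 replicate 2 or 3, without any 1 of the rho0 replicates, and without PKO-6 replicate 1 or 2, with values of 0.36 to 0.48. The call held in 8 of 19 alternatives under the same rule. *Rn45s* took 19.6% of rho0 replicate 1, the highest of its line for *Exosc5*, and 12.2% of PKO-6 replicate 3, the lowest of its line, and its part in this spread was not tested. *Bckdha*, which shares the divergent start region and encodes a subunit of branched-chain ketoacid dehydrogenase, had log2 fold changes of 0.41, 0.60 and 0.40 against TM6 in rho0, PKO-1 and PKO-6 (edgeR adjusted p = 0.00863, 0.000715 and 0.00989).

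*Exosc8*, the ring subunit with the highest level, fell in all 3 derived lines. Normalized counts were 2875, 3130 and 3070 in TM6, 2534, 2378 and 2367 in rho0, 2518, 2504 and 2250 in PKO-1, and 2301, 2364 and 2319 in PKO-6. The lowest TM6 library stood above all 9 derived libraries. Log2 fold changes against TM6 were -0.32 in rho0 (SE 0.0552, edgeR adjusted p = 0.000154), -0.32 in PKO-1 (SE 0.0553, edgeR adjusted p = 0.000174) and -0.38 in PKO-6 (SE 0.0551, edgeR adjusted p = 3.05e-05). These are past adjusted p but under the fold threshold. *Alg5*, a glycosylation enzyme that starts 174 bases away in the other direction, had -0.21, -0.21 and 0.04 against TM6 in the same lines (edgeR adjusted p = 0.00625, 0.00832 and 0.599). These 2 ring subunits were closer in level outside TM6. Per length there were 20.4 ± 3.15 *Exosc5* transcripts for every 100 of *Exosc8* in TM6, 43.2 ± 5.02 in rho0, 40.9 ± 3.62 in PKO-1 and 37.4 ± 6.06 in PKO-6 (mean ± SD of 3 libraries). This pair was chosen after its values were seen.

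*Exosc1*, a cap subunit on chromosome 19 from 41922980 to 41933314, was higher in both PKO clones. Its normalized counts were 1632, 1817 and 1761 in TM6, 2047, 1921 and 1985 in rho0, 2511, 2384 and 2342 in PKO-1, and 2349, 2250 and 2417 in PKO-6. The 4 lines fell into 3 separate ranges, TM6 lowest, rho0 between and both clones highest. The log2 fold change against TM6 was 0.47 in PKO-1 (SE 0.0541, edgeR adjusted p = 3.77e-06) and 0.43 in PKO-6 (SE 0.0540, edgeR adjusted p = 7.27e-06), just under the fold threshold, and 0.51 in PKO-1 without TM6 replicate 2, where it was called. In rho0 it was 0.19 (SE 0.0543, edgeR adjusted p = 0.00582), and the adjusted p exceeded 0.01 in 13 of 21 alternatives, up to 0.0522 without TM6 replicate 1, with 0.13. Here and below, the alternatives counted include those that reuse the main adjusted p and so could not exceed 0.01. *Zdhhc16*, the divergent partner of *Exosc1*, went the other way, with log2 fold changes of -0.56, -0.42 and -0.52 in rho0, PKO-1 and PKO-6 (edgeR adjusted p = 4.91e-07, 9.73e-06 and 8.53e-07). Most *Exosc1* counts fell on the transcript of 8 exons, 88.8 ± 0.77% in TM6 and 92.5 ± 1.07% in rho0, 92.6 ± 1.93% in PKO-1 and 92.7 ± 0.30% in PKO-6 (mean ± SD of 3 libraries), so all derived libraries, from 91.4%, lay above the TM6 libraries, at most 89.7%. These shares are RSEM estimates over 5 similar transcripts.

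*Exosc6*, the single-exon ring subunit, was lower than in TM6 in rho0 and PKO-6, and the clones differed. Normalized counts were 1854, 1747 and 1599 in TM6, 1304, 1018 and 1049 in rho0, 1593, 1684 and 1614 in PKO-1, and 1097, 1217 and 1032 in PKO-6. PKO-1 overlapped TM6, while all rho0 and PKO-6 libraries were below both. The log2 fold change against TM6 was -0.62 in rho0 (SE 0.0922, edgeR adjusted p = 3.53e-05), -0.64 in PKO-6 (SE 0.0919, edgeR adjusted p = 2.72e-05) and -0.09 in PKO-1 (SE 0.0910, edgeR adjusted p = 0.411, 95% interval -0.29 to 0.11). All tested genes of chromosome 8 had a median log2 fold change of -0.18 in rho0 and -0.43 in PKO-6 against TM6, and relative to these medians *Exosc6* was at -0.44 and -0.21, under the fold threshold.

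*Exosc4*, a ring subunit on chromosome 15 from 76327397 to 76330670, was lower in rho0. Normalized counts were 1349, 1312 and 1234 in TM6, 904, 755 and 778 in rho0, 1023, 1116 and 1003 in PKO-1, and 1354, 1537 and 1071 in PKO-6. The rho0 libraries were below every other library, PKO-1 lay between rho0 and TM6, and the PKO-6 libraries spread from below to above the TM6 range, with replicate 3 low. The log2 fold change against TM6 was -0.68 in rho0 (SE 0.11, edgeR adjusted p = 9.61e-05), -0.31 in PKO-1 (SE 0.11, edgeR adjusted p = 0.0243) and 0.02 in PKO-6 (SE 0.11, edgeR adjusted p = 0.855, 95% interval -0.21 to 0.26). The median of chromosome 15 was -0.38 in rho0 and -0.23 in PKO-1, and relative to it *Exosc4* was at -0.30 in rho0, under the fold threshold, and at -0.08 in PKO-1. The value in PKO-6 was -0.13 without replicate 2 and 0.15 without replicate 3, and was not called in either.

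*Exosc7*, a ring subunit on chromosome 9, was lowest in PKO-1. Normalized counts were 1022, 1023 and 1009 in TM6, 1219, 1150 and 1069 in rho0, 759, 844 and 699 in PKO-1, and 915, 969 and 920 in PKO-6, with no overlap between any of the lines. The log2 fold change against TM6 was -0.41 in PKO-1 (SE 0.0740, edgeR adjusted p = 0.000263), -0.12 in PKO-6 (SE 0.0731, edgeR adjusted p = 0.148) and 0.17 in rho0 (SE 0.0729, edgeR adjusted p = 0.0493). The median of the 776 tested genes of chromosome 9 was -0.39 in PKO-1, and relative to it *Exosc7* was at -0.017. *Zdhhc3*, which starts 25 bases away in the other direction, had -0.18, -0.78 and -0.42 against TM6 in rho0, PKO-1 and PKO-6 (edgeR adjusted p = 0.0108, 3.37e-08 and 1.02e-05). In rho0 the signs of *Zdhhc3* and *Exosc7* were opposite.

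**Figure D3:**
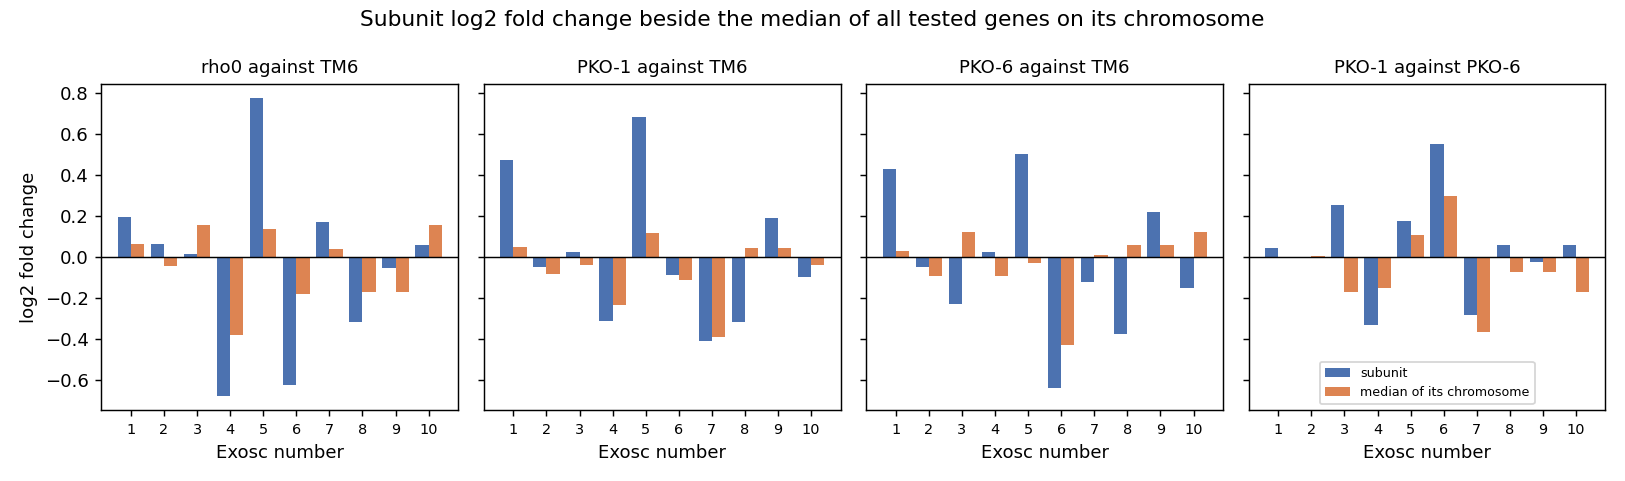
Log2 fold change (y axis) of each subunit (blue) beside the median of all tested genes on its chromosome (orange), in 4 comparisons; the x axis gives the number in the Exosc symbol. *Exosc7* in PKO-1 against TM6 (-0.41) matched the median of its chromosome (-0.39), whereas *Exosc5* in rho0 (0.77) stood far from its own (0.14).

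The chromosome medians differed widely between lines, from -0.75 on chromosome X to 0.55 on chromosome 12 in rho0 against TM6, from -0.74 to 0.56 on the same chromosomes in PKO-1, and from -0.87 to 0.53 in PKO-6. For *Exosc5* the medians of chromosome 7 were 0.14, 0.12 and -0.03 in rho0, PKO-1 and PKO-6, and for *Exosc1* those of chromosome 19 were 0.06, 0.05 and 0.03. Removing these medians changed the log2 fold change alone, and the adjusted p was kept from the main fit. *Exosc5* then stayed past the fold threshold in rho0, at 0.63, in PKO-1, at 0.56, and in PKO-6, at 0.53. *Exosc8* was at -0.15 in rho0 relative to chromosome 3, whose median was -0.17, and at -0.36 in PKO-1 and -0.44 in PKO-6, where the medians were 0.04 and 0.06.

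The other 4 subunits were not called in any line against TM6. *Exosc9*, in the ring, ranged over 2264 to 2505 normalized counts in TM6, 2197 to 2450 in rho0, 2618 to 2859 in PKO-1 and 2773 to 2805 in PKO-6. Both clones lay above TM6, with log2 fold changes of 0.19 in PKO-1 (SE 0.0555, edgeR adjusted p = 0.00827) and 0.22 in PKO-6 (SE 0.0553, edgeR adjusted p = 0.00307), but the adjusted p exceeded 0.01 in 15 of 20 alternatives in PKO-1, up to 0.135, and in 6 of 20 in PKO-6, up to 0.0405. *Ccna2*, the overlapping cyclin gene, had -1.02, -0.02 and -0.72 in rho0, PKO-1 and PKO-6 against TM6, and its part in the counts of *Exosc9* was not tested. *Exosc2* and *Exosc3*, both in the cap, had 2415 to 2903 and 1011 to 1454 normalized counts in all 12 libraries. *Exosc2* had 0.06, -0.05 and -0.05 against TM6 in rho0, PKO-1 and PKO-6, with 95% intervals of -0.06 to 0.19, -0.17 to 0.07 and -0.17 to 0.07. *Exosc3* had 0.01, 0.02 and -0.23, the last not past the threshold (SE 0.0918, edgeR adjusted p = 0.0378). Its PKO-6 libraries, at most 1140, lay just below the TM6 libraries, from 1142. Normalized counts of *Exosc10* were 6845 to 7101 in TM6, 6873 to 7641 in rho0, 6253 to 6733 in PKO-1 and 6112 to 6477 in PKO-6. The clones were below every TM6 library, at -0.10 (SE 0.0516, edgeR adjusted p = 0.117) and -0.15 (SE 0.0515, edgeR adjusted p = 0.0168), which did not pass.

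**Figure D4:**
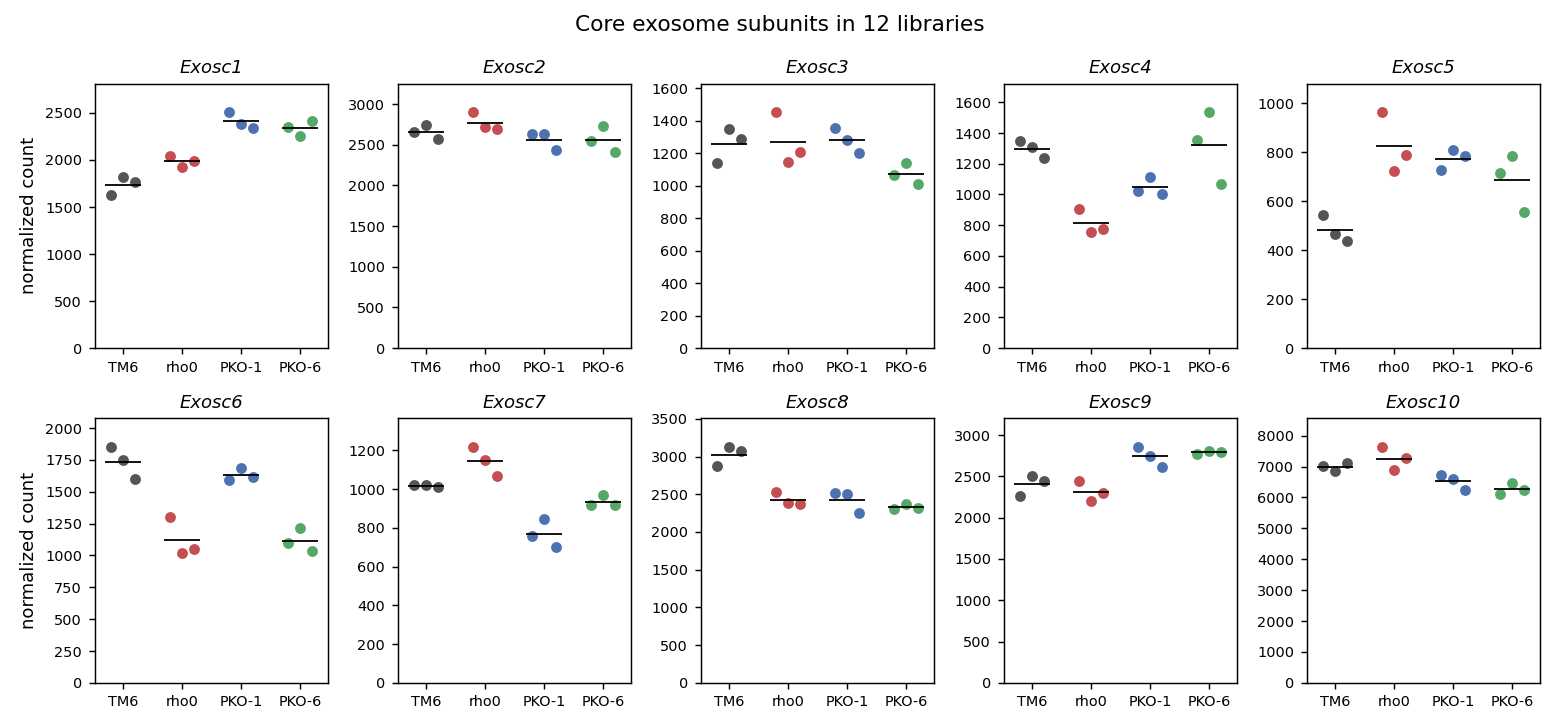
Normalized count (y axis, from 0) of each subunit in each library, by line; points are the 3 replicates and bars their mean. The 3 TM6 points lie below all others for *Exosc5* (438 to 544) and *Exosc1* (1632 to 1817) and above all others for *Exosc8* (2875 to 3130).

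The comparison of the clones asks whether 2 lines with the same deletion share these levels. In PKO-1 against PKO-6, 1 of 10 subunits was called against 29.1% of tested genes, and 2 passed adjusted p alone against 50.0%. *Exosc6* was higher in PKO-1, at 0.55 (SE 0.0923, edgeR adjusted p = 0.000159), beside a chromosome 8 median of 0.30. Without PKO-6 replicate 3 it was at 0.497 and not called, and with chromosome medians removed it was at 0.25. *Exosc7* was lower in PKO-1, at -0.28 (SE 0.0742, edgeR adjusted p = 0.00443, above 0.01 in 4 of 20 alternatives), and with the median of chromosome 9 (-0.37) removed it was at 0.08. The 3 subunits whose promoters are shown had differences between clones of 0.04 for *Exosc1* (95% interval -0.07 to 0.16), 0.18 for *Exosc5* (95% interval -0.11 to 0.46) and 0.06 for *Exosc8* (95% interval -0.06 to 0.18), none past the test. They were chosen for passing in the same direction in both clones against TM6, a choice that favours small differences between the clones.

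With both clones pooled, 1 subunit was called in PKO against TM6 against 25.7% of tested genes, and 3 passed adjusted p alone against 34.4%. This fit, also used against rho0, treats all cultures of both clones as replicates of 1 group. Its p-values do not measure the spread between independent knockout clones. *Exosc5* was at 0.59 (SE 0.14, edgeR adjusted p = 0.00380), and the call was lost without TM6 replicate 2, at 0.57, or TM6 replicate 3, at 0.53, where the adjusted p was 0.0212 and 0.0255. *Exosc1* was at 0.45 (SE 0.0561, edgeR adjusted p = 5.30e-05) and *Exosc8* at -0.35 (SE 0.0565, edgeR adjusted p = 0.000361). *Exosc6* was at -0.34 (SE 0.16, edgeR adjusted p = 0.108), with 1 clone low and the other in the TM6 range.

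The comparison of PKO with rho0 asks how the knockout clones differ from a line that lost mtDNA by chemical treatment. The paper reports that both sides lack mtDNA. In it 0 of 10 subunits were called by edgeR against 10.7% of tested genes, 5 had an unadjusted p below 0.05, and DESeq2's Wald test called 1. By adjusted p alone 3 passed, against 16.9%. *Exosc1* was higher in PKO (0.26, SE 0.0557, edgeR adjusted p = 0.00495), as was *Exosc9* (0.26, SE 0.0565, edgeR adjusted p = 0.00565), and *Exosc7* was lower (-0.43, SE 0.10, edgeR adjusted p = 0.00773). Each exceeded 0.01 in 8 to 11 of 21 alternatives. Relative to the medians of their chromosomes *Exosc9* was at -0.013, *Exosc7* at -0.22 and *Exosc1* at 0.23. *Exosc4* was at 0.54 (SE 0.14, edgeR adjusted p = 0.0117), and at 0.27 with the median of chromosome 15 (0.27) removed. Without that removal it was called by DESeq2's Wald test, with both clones weighted equally in the fit of 4 lines, with trends in GC content and length removed, and without PKO-1 replicate 3. *Exosc5* and *Exosc8* were at -0.18 (95% interval -0.47 to 0.11) and -0.03 (95% interval -0.16 to 0.09), and at -0.13 and -0.30 with chromosome medians removed.

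Among subunits with several transcript models, the coding models dominated in all lines. A non-coding *Exosc5* transcript took 6.98% to 9.49% of the counts of its gene on average per line, with libraries from 2.72% to 11.2%, and the lines overlapped. The main *Exosc8* transcript held 97.0% to 98.8% and the main coding *Exosc10* transcript 94.9% to 96.6% on average per line.

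*Dis3*, which encodes the catalytic subunit of the nuclear exosome, was below every TM6 library in all 3 derived lines and was called in PKO-6 alone. Normalized counts of *Dis3* were 7651 ± 597 in TM6, 6441 ± 321 in rho0, 6610 ± 242 in PKO-1 and 5404 ± 534 in PKO-6 (mean ± SD of 3 libraries). Its log2 fold change against TM6 was -0.50 in PKO-6 (SE 0.0749, edgeR adjusted p = 3.79e-05), -0.25 in rho0 (SE 0.0747, edgeR adjusted p = 0.00876) and -0.21 in PKO-1 (SE 0.0747, edgeR adjusted p = 0.0239). The call in PKO-6 sat at the fold threshold, at -0.501. *Dis3l*, the cytoplasmic counterpart, had 1818 ± 65.4, 1795 ± 81.3, 1579 ± 61.8 and 1896 ± 31.7 normalized counts in TM6, rho0, PKO-1 and PKO-6 (mean ± SD of 3 libraries) and was lower in PKO-1 at -0.20 (SE 0.0518, edgeR adjusted p = 0.00355). *Skiv2l2* (also named Mtrex), the helicase that feeds RNA to the nuclear exosome, was at 0.10, 0.09 and -0.09 in rho0, PKO-1 and PKO-6 against TM6, with none past the test.

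Of the 17 exosome exonucleases and cofactors, 2 were called higher and 1 lower in rho0 against TM6, 0 and 1 in PKO-1, and 1 and 4 in PKO-6, against 42.1%, 34.3% and 41.3% of all tested genes called in either direction. Their median log2 fold changes were -0.02, -0.09 and -0.09, beside 0.02, 0.00086 and 0.01 for all tested genes. In rho0 *Zfc3h1*, a scaffold of the nuclear targeting complex for polyadenylated RNA, rose by 1.18 (SE 0.21, edgeR adjusted p = 0.000211) and *Zcchc7*, of the TRAMP polyadenylation complex, by 0.65 (SE 0.10, edgeR adjusted p = 6.15e-05). *C1d*, which binds Exosc10, was lower in rho0 at -0.60 (SE 0.11, edgeR adjusted p = 0.000216) and in PKO-6 at -0.75 (SE 0.11, edgeR adjusted p = 2.74e-05). In PKO-6 *Zfc3h1* was at 0.88 and *Mphosph6*, another partner of Exosc10, at -0.50 (edgeR adjusted p = 0.00213 and 1.81e-05), and in PKO-1 the called gene was *Papd7*, a noncanonical poly(A) polymerase, at -0.60 (edgeR adjusted p = 8.66e-07). With the clones pooled 0 of 17 were called by edgeR against TM6 (25.7% of all tested genes), where 7 had an unadjusted p below 0.05, and against rho0 2 were lower (10.7% of all tested genes called), *Ttc37* at -0.53 and *Zcchc7* at -0.50.

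Of 13 other RNA decay genes, 3 were called higher and 1 lower in rho0, 1 and 1 in PKO-1, and 1 and 3 in PKO-6, relative to TM6, beside the same 42.1%, 34.3% and 41.3% of all tested genes, with median log2 fold changes of 0.18, 0.02 and -0.12. These 13 include *Pnpt1*, the gene that Cre targeted, so the counts for the clones are fixed in part by the knockout. *Pnpt1* was the 1 gene called lower in PKO-1 and was among the 3 in PKO-6. *Pnpt1* itself was higher in rho0, at 0.75 (SE 0.0828, edgeR adjusted p = 2.09e-06), and lower in PKO-1, at -1.34, and PKO-6, at -0.69 (edgeR adjusted p = 1.25e-08 and 5.53e-06). *Dis3l2*, a cytoplasmic exonuclease for uridylated RNA that works without the exosome, was higher in every derived line, at 0.73 in rho0, 0.75 in PKO-1 and 0.64 in PKO-6 (edgeR adjusted p = 2.98e-07, 2.78e-07 and 1.06e-06). *Upf1*, the helicase of nonsense-mediated decay, was lower in rho0 at -0.66 and in PKO-6 at -0.67 (edgeR adjusted p = 5.68e-07 and 4.76e-07), and *Lsm1*, of the decapping complex, was at -0.65 in PKO-6 (edgeR adjusted p = 7.83e-07).

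Of 20 ribosome biogenesis genes, whose products act in the rRNA processing that uses the exosome, 3 were called higher and 2 lower in rho0, 2 and 2 in PKO-1, and 1 and 2 in PKO-6, beside 42.1%, 34.3% and 41.3% of all tested genes. *Npm1* and *Nop56* were at 0.83 and 0.74 in rho0, and *Bop1* was lower in all 3 lines, at -0.92, -0.66 and -0.75 (edgeR adjusted p = 6.05e-07, 1.85e-05 and 4.18e-06). Of the 10 proliferation genes, 7 were called lower and 1 higher in rho0, 1 lower in PKO-1 and 8 lower in PKO-6, beside 42.1%, 34.3% and 41.3% of all tested genes, with medians of -0.60, -0.04 and -0.62. The rho0 and PKO-6 lines, with low proliferation genes, were also the ones with low *Exosc6*, and the part of proliferation in subunit levels was not tested.

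Across the 12 libraries the subunits did not share a single pattern. The mean centred log2 level of the 10 subunits was 0.02 ± 0.03 in TM6, -0.02 ± 0.11 in rho0, 0.03 ± 0.06 in PKO-1 and -0.02 ± 0.08 in PKO-6 (mean ± SD of 3 libraries). Pearson's r of single subunits with this mean, to which each contributes, ran from -0.02 for *Exosc7* and 0.01 for *Exosc1* to 0.70 for *Exosc3*, as a description over 12 libraries. Other genes most like the mean included *Tceb2* (r = 0.94), *Coro1b* (r = 0.91), *Hist1h2bg* (r = 0.91) and *Rpl9* (r = 0.90), which share the libraries and their scaling with it.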

How the data were processed

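From ribosome-depleted RNA the authors made stranded libraries in technical duplicate, sequenced paired reads of 125 bases on a HiSeq and merged the duplicates. Per the labels and methods, they ran RSEM 1.2.25 with bowtie2 against RefSeq transcripts of mm10 (GRCm38). The deposited values are expected counts (estimated, not normalized) per gene and, per library, expected counts, TPM and the percent of each gene on each transcript. The deposited TPM were summed per gene for levels per length, and the deposited percent column was not used, since shares were computed from counts.

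Expected counts were rounded and tested with edgeR 4.0.16 under R 4.3.3 (a minimum count of 10 in filterByExpr, which kept 14026 of 24453 genes, TMM, quasi-likelihood test, Benjamini-Hochberg). The rho0, PKO-1, PKO-6 and clone comparisons used a fit of 4 lines (biological coefficient of variation 0.0837). PKO comparisons used 3 groups with clones pooled (0.248), as the study did with DESeq2 1.18.1. A normalized count is a count divided by the scaled library size relative to the mean library. The SE is the log2 fold change divided by the square root of F. Alternatives included DESeq2 1.42.0, and the fit was tested on simulated data. The alternatives with chromosome medians removed and with adjusted p alone reuse the adjusted p of the main fit. Library totals were 47164860 to 67991378 counts. Decimals in the counts of *Exosc2*, *Exosc4* and *Exosc9* in all 12 libraries mark reads that RSEM divided between genes, so these 3 are less certain. Counts of *Dis3*, *Skiv2l2* and *Ccna2* had decimals too.

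Members and gene lists were chosen with earlier results of these data known. The text names all members, at most 3 called genes with the largest change per list and comparison, *Dis3*, *Dis3l*, *Skiv2l2* and *Pnpt1*, and the 5 genes most like the members' mean, of which 1 is not reported here. Neighbouring genes were chosen by position. Promoters are from RefSeq (GRCm38.p6), with 8 of 10 members matched. Deviations of same-numbered replicates of different lines correlated at -0.30 to 0.20 (median 0.088), and those of differently numbered ones at -0.33 to 0.41 (median -0.017). These ranges overlap and cannot exclude a pairing, and the main fit assumed none.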

Additional observations from a re-analysis of the deposited data

Results flagged for a closer look

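A direct test between the clones found different levels in PKO-1 and PKO-6 for these genes. Of the 10 core subunits 1 was called, against 29.1% of tested genes, and 2 passed adjusted p alone, against 50.0%. Of the core subunits, *Exosc6* had a log2 fold change of 0.55 and *Exosc7* of -0.28 in PKO-1 against PKO-6 (edgeR adjusted p = 0.000159 and 0.00443, 3 libraries per clone, no overlap). The adjusted p of *Exosc7* exceeded 0.01 in 4 of 20 alternatives, up to 0.0279 without PKO-1 replicate 3. With chromosome medians removed, *Exosc6* was at 0.25 and *Exosc7* at 0.083. *Dis3* was at 0.29, *Dis3l* at -0.26 and *Pnpt1* at -0.65. Of the 17 exosome exonucleases and cofactors 2 were called, both higher in PKO-1, *C1d* at 0.70 and *Papd5* at 0.52. Of the 20 ribosome biogenesis genes 1 was called lower, *Rrp9* at -0.59, and 1 higher, *Dkc1* at 0.53. Of the 10 proliferation genes 6 were called higher, among them *Mki67* at 0.96, *Plk1* at 0.78 and *Aurkb* at 0.75. The share of all tested genes called, 29.1%, applies to these lists as well.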

How the results depend on the processing

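The subunits called kept to within 1.5 times their number in 95 of 123 recounts. By adjusted p alone they numbered 5 in rho0, PKO-1 and PKO-6 against TM6, 2 between the clones, 3 in PKO against TM6 and 3 in PKO against rho0. With chromosome medians removed, which left the adjusted p as it was, they numbered 1 in rho0, 1 in PKO-6 and 0 between the clones. The count in PKO-6 was 1 with DESeq2 size factors, DESeq2's Wald test, no filter on low counts, or only the compared groups fitted, where *Exosc5* fell under the fold threshold. That in PKO against rho0 was 1 with the Wald test, the mean of both clones in the fit of 4 lines, or trends in GC content and length removed, the last chosen after seeing the data. Leaving out 1 library gave 1 to 2 in PKO-1, 1 to 2 in PKO-6, 0 to 1 between the clones, 0 to 1 in PKO against TM6 and 0 to 1 in PKO against rho0.

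Of 1230 log2 fold changes under alternatives, 46 changed sign, among them *Exosc7* between the clones (-0.28) and *Exosc9* in PKO against rho0 (0.26), both with chromosome medians removed. With chromosome medians removed, *Exosc3*, *Exosc9* and *Exosc10* in rho0 were at -0.14, 0.12 and -0.097, *Exosc2* and *Exosc6* in PKO-1 at 0.033 and 0.024, *Exosc2* in PKO-6 at 0.043, *Exosc2*, *Exosc7* and *Exosc9* between the clones at -0.0032, 0.083 and 0.049, *Exosc2* and *Exosc4* in PKO against TM6 at 0.026 and 0.0070, and *Exosc9* in PKO against rho0 at -0.013. With only the compared groups fitted, *Exosc3* was at -0.012 in rho0 and -0.0014 in PKO-1, *Exosc4* at -0.0073 in PKO-6 and *Exosc2* at -0.0020 between the clones. With DESeq2 size factors and with the Wald test, *Exosc3* in PKO-1 was at -0.0018 and -0.0018 and *Exosc2* between the clones at -0.0072 and -0.0072. Without the filter *Exosc2* between the clones was at -0.014. With GC content and length trends removed, *Exosc3* was at -0.00092 in rho0 and -0.034 in PKO-1, and *Exosc6* at 0.069 in PKO-1. Leaving out 1 library moved *Exosc3* from -0.11 to 0.063 in rho0 and from -0.074 to 0.076 in PKO-1, *Exosc4* from -0.13 to 0.15 in PKO-6, and *Exosc2* from -0.038 to 0.052 and *Exosc9* from -0.055 to 0.0087 between the clones. *Exosc6* in rho0 had an adjusted p of 0.0174 with both clones pooled. Apart from the shift of chromosome medians, the cause of these changes was not tested.

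The main fit assumed no pairing by replicate number. With the replicate block the counts of called subunits were 3 in rho0, 1 in PKO-1, 2 in PKO-6, 1 between the clones, 1 in PKO against TM6 and 0 in PKO against rho0, the same as without it, and calls over all genes numbered 5849, 4761, 5776, 4027, 3113 and 1097.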
